A study of Homo sapiens with 16 samples.

Results

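The expressed pseudogenes are the 315 rows of the deposited normalized count table that carry the biotype pseudogene and have a mean normalized count of 100 or more over all 16 libraries, out of 13555 pseudogene rows and 56969 rows in all. Of the 315, 287 had a mean of 100 or more in both groups, 22 in HCF-1 siRNA only and 6 in control siRNA only. Members of the last 2 kinds passed the limit only through the group where they were higher, and among those named below they are MST1L, DDX12P, FAR2P1, PKD1P1, BMS1P5, WHAMMP3, MTCO2P22 and RP5-1009N12.1 (HCF-1 siRNA only) and AQP7P3 (control siRNA only), besides AC016773.1 and FAM35BP at the limit itself. The members were chosen by their mean level, so the level itself is a description and is not tested. Just inside the limit stood AC016773.1 (mean 101.2), WHAMMP3 (101.3) and FAM35BP (101.4). Just outside it stood ANKRD20A5P (99.7), GUSBP1 (97.6) and FAM35DP (97.5).

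The libraries came from HepG2, a human liver cancer cell line with hepatocyte-like expression. The 8 HCF-1 siRNA and 8 control siRNA libraries are stranded mRNA sequencing libraries of biological replicates. Both groups were transfected by the same reagent in 2 rounds. The rounds were 2 days apart, and RNA was taken 2 days after the second. HCF-1, the product of HCFC1, is a transcriptional co-regulator that bridges DNA-binding factors and chromatin-modifying enzymes. HCFC1 itself was measured at 3112 to 4171 normalized counts in HCF-1 siRNA cells (median 3654), against 4851 to 6878 in control siRNA cells (median 5548). It fell by 0.61 ± 0.07 on the log2 scale (SE; adjusted p = 4.52e-06, limma) without overlap of the groups, so the messenger was lowered and not removed. Libraries held 25098840 to 43186890 reads in HCF-1 siRNA and 21030830 to 32820459 in control siRNA (exact permutation p = 0.0375, two-sided), so the HCF-1 siRNA libraries were deeper on average. All 11 HepG2 markers examined were expressed, while the blood markers PTPRC and CD3E and the fibroblast markers COL1A2, DCN and THY1 averaged under 10 counts. Of the other markers of blood, vessel and connective tissue cells, LYZ stood at 27704 to 33964 in HCF-1 siRNA and 26577 to 31449 in control siRNA, CD14, CDH5 and VWF averaged 62.3, 111 and 18.7 in HCF-1 siRNA and 84.2, 91.0 and 15.1 in control siRNA, and COL3A1 reached 12.4 in HCF-1 siRNA and 246 in control siRNA. PECAM1 was not analysed here. These are bulk samples, in which fewer cells expressing an RNA and less of it per cell cannot be told apart.

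A pseudogene is a copy of a functional gene that has lost the ability to make the ancestral product. Processed copies are reverse-transcribed messengers inserted back into the genome and usually lack introns. Unprocessed copies arise by duplication of genomic DNA and may keep introns and promoter. A further class consists of stretches of mitochondrial DNA inserted into nuclear chromosomes, here called mitochondrial genome copies. Because a pseudogene and its parent can be nearly identical, a short read may fit both, and how reads are shared out between them depends on the aligner and counter.

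A parent was assigned to 270 of the 315 members, for 171 from the symbol and for 99 from sequence alone. Of the 149 members with both kinds of evidence, 139 gave the same parent. The 270 had 206 distinct parents. By parent or family, 34 members were copies of ribosomal protein genes, 13 of translation factor genes, 6 of chromatin or RNA-binding protein genes, 5 of chaperone genes, 4 of glycolysis and metabolic enzyme genes and 3 of cytoskeletal genes. A further 39 belonged to families spread by segmental duplication, and 25 were mitochondrial genome copies, while 144 had another parent and 42 neither a parent nor a family. By their kind in GENCODE release 29, and outside the mitochondrial genome copies, 138 members were processed and 117 were unprocessed or unitary. A unitary pseudogene is the only copy of its gene. Another 15 members are listed as protein-coding in that release.

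The 25 mitochondrial genome copies included at least 1 copy of each of the 13 protein genes of the mitochondrial genome, and 1 member, RP11-777B9.5, resembled the mitochondrial large ribosomal RNA gene MT-RNR2 (91.0% identity). The protein genes encode subunits of the respiratory chain: the ND genes subunits of complex I, CYB of complex III, the CO genes of complex IV, and ATP6 and ATP8 of the ATP synthase. The copies on chromosome 1 form a block of 7 neighbouring pseudogenes, with 97.6% to 99.1% identity to their parents. The largest of the blocks on chromosome 5 holds 6 copies with 89.6% to 95.8% identity, and 12 copies lie outside both blocks with 75.7% to 95.6% identity.

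The following stretches of 100 bases show how close the 4 pseudogenes with the largest part in the rise are to their mitochondrial parents. In each pair the window is the ungapped one with the most differences, and capitals mark the bases that differ. Bases are read from GENCODE release 29 transcripts (GRCh38), 5′ to 3′. MTCO1P12, which the table lists under the symbol hsa-mir-6723 (ENSG00000237973), lies on chromosome 1 and is shown from base 297 to 396 of its transcript, like MT-CO1. MTND4P12 on chromosome 5 and MT-ND4 are shown from 87 to 186, MTND2P28 on chromosome 1 and MT-ND2 from 423 to 522, and MTCO2P12 (listed as RP5-857K21.7) on chromosome 1 and MT-CO2 from 207 to 306.
MTCO1P12: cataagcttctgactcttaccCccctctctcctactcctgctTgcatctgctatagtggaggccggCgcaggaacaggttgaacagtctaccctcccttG
MT-CO1: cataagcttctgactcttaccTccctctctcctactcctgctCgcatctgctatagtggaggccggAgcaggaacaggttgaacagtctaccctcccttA
MTND4P12: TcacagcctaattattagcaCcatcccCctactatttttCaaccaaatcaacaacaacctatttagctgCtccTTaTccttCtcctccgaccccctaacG
MT-ND4: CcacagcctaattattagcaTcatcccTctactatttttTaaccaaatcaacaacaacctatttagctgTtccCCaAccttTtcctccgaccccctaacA
MTND2P28: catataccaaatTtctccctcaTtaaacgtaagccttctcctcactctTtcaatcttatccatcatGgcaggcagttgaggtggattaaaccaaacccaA
MT-ND2: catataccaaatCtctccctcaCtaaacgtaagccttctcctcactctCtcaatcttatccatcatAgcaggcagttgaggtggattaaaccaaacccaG
MTCO2P12: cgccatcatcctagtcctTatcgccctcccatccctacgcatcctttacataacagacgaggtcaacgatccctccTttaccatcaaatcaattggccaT
MT-CO2: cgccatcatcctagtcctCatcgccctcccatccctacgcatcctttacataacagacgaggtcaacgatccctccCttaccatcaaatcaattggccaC

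The windows hold 4 differences between MTCO1P12 and MT-CO1, 10 between MTND4P12 and MT-ND4, 5 between MTND2P28 and MT-ND2, and 3 between MTCO2P12 and MT-CO2. Over the whole alignment MTCO1P12 differed from MT-CO1 at 20 of 1543 positions, besides 1 gap, and MTND4P12 differed from MT-ND4 at 58 of 1376. Of all words of 50 bases in MTCO1P12, 50.6% do not occur in MT-CO1, and the corresponding share is 96.5% for MTND4P12 against MT-ND4 and 38.1% for MTND1P23 against MT-ND1. A read shorter than such a stretch of identity cannot be placed by its letters alone. The mitochondrial genes themselves are not among the rows analysed here. Read totals and shares therefore leave out reads of those genes, a read of a mitochondrial transcript had no row of its own gene among them, and the change of each copy could not be set beside that of its parent.

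Pseudogenes took a larger share of all reads in HCF-1 siRNA cells. The share in all pseudogene rows was 2.40 ± 0.19% in HCF-1 siRNA libraries and 1.88 ± 0.13% in control siRNA libraries (SD, n = 8 each), a difference of 0.520 percentage points (exact permutation p = 0.0001554 two-sided, the smallest p that 8 against 8 allows). The libraries ran from 2.14% to 2.66% in HCF-1 siRNA and from 1.75% to 2.12% in control siRNA, without overlap. The 315 expressed pseudogenes carried 99.7% of this difference (68.1% in members whose exons overlap another annotated gene on either strand, such as MTCO1P12), with a share of 2.30 ± 0.19% in HCF-1 siRNA and 1.78 ± 0.13% in control siRNA (SD, n = 8 each). Without pseudogenes that overlap another gene the difference was 0.163 percentage points.

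Within the expressed pseudogenes, the mitochondrial genome copies carried the rise. They took 1.38 ± 0.18% of reads in HCF-1 siRNA libraries and 0.891 ± 0.142% in control siRNA libraries (SD, n = 8 each), and their part was 93.2% of the difference in pseudogene read share. The lowest, median and highest library stood at 1.11%, 1.36% and 1.65% in HCF-1 siRNA, against 0.723%, 0.855% and 1.15% in control siRNA. The groups met at 1 point only: control siRNA replicate 1, at 1.15%, stood above HCF-1 siRNA replicate 3, at 1.11%. The other 290 members took 0.926 ± 0.019% in HCF-1 siRNA and 0.893 ± 0.018% in control siRNA (SD, n = 8 each; exact permutation p = 0.00109), which is 6.44% of the difference. Pseudogenes under the mean of 100 took 0.103 ± 0.003% in HCF-1 siRNA and 0.101 ± 0.012% in control siRNA (SD, n = 8 each; exact permutation p = 0.672).

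**Figure D1:**
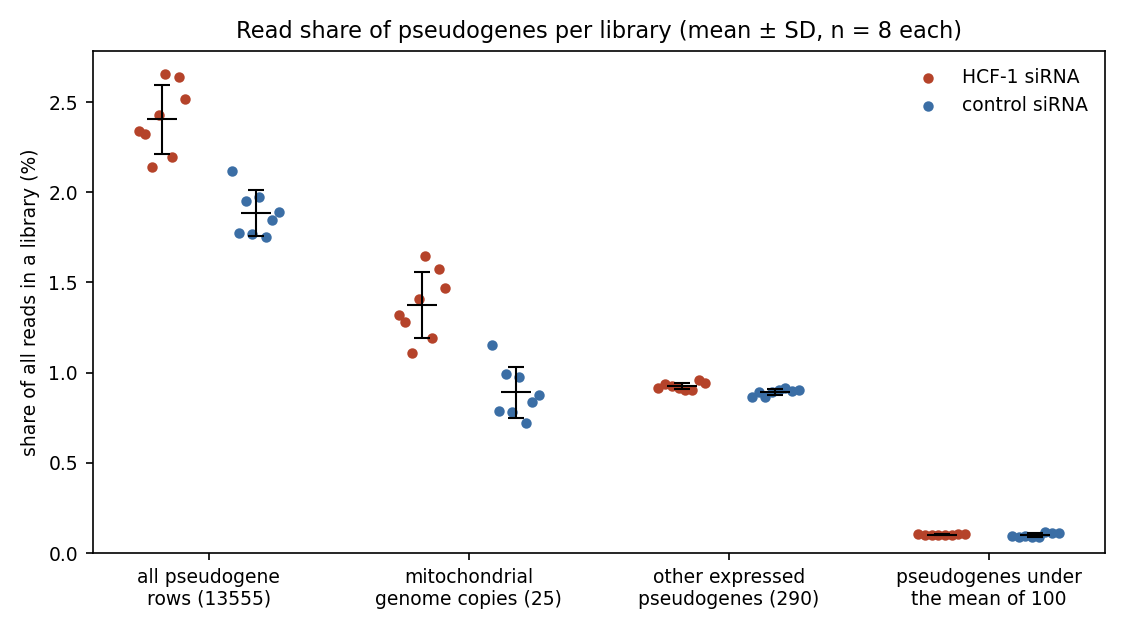
Share of all reads in each library (percent, vertical axis) taken by all pseudogene rows, by the 25 mitochondrial genome copies, by the other 290 expressed pseudogenes and by pseudogenes under the mean of 100. Points are libraries and bars mean ± SD (n = 8 each). The mitochondrial genome copies averaged 1.38% in HCF-1 siRNA and 0.891% in control siRNA. The other 290 members averaged 0.926% and 0.893%, a smaller difference, and the pseudogenes under 100 averaged 0.103% and 0.101%.

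The part of a member is the difference between its mean read share in HCF-1 siRNA and in control siRNA. A few members held most of the total: the 5 largest parts made up 65.2% of the difference and the 8 largest 81.4%, all of them mitochondrial genome copies. Of the 10 largest parts 9 belonged to such copies, and of the 20 largest 16. The largest part was that of MTCO1P12, a copy of the gene for cytochrome c oxidase subunit 1, with 0.348% of reads in HCF-1 siRNA and 0.232% in control siRNA, which alone is 22.4% of the difference. MTND4P12, a copy of a complex I subunit gene, came next with 0.192% in HCF-1 siRNA and 0.113% in control siRNA, or 15.2%. The chromosome 1 block as a whole carried 60.8%, the chromosome 5 block 25.5%, and the 12 copies outside both 6.96%.

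**Figure D2:**
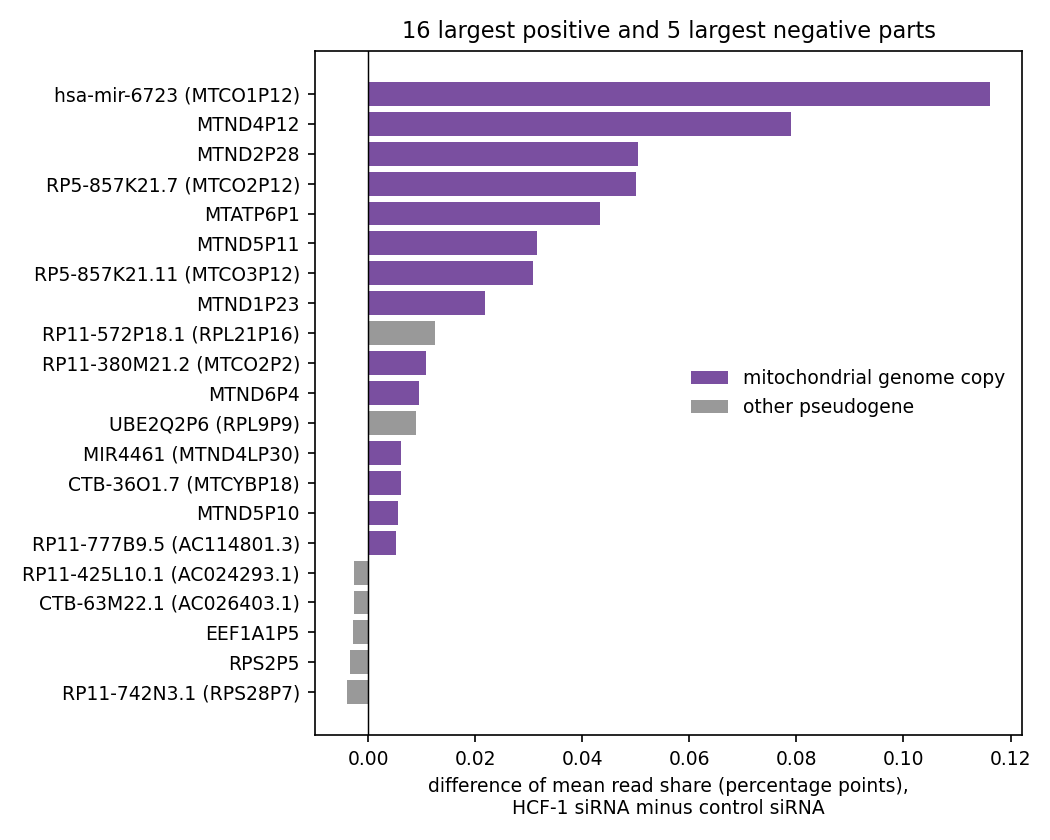
Difference of mean read share, HCF-1 siRNA minus control siRNA (percentage points, horizontal axis), for the 16 members with the largest positive and the 5 with the largest negative parts. Purple bars are mitochondrial genome copies and grey bars other pseudogenes; hsa-mir-6723, which is MTCO1P12, has the longest bar at 0.116, and the longest bar to the left, RP11-742N3.1 (RPS28P7), reaches -0.0040.

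Of the 315 members, 95 were called higher and 23 lower in HCF-1 siRNA (limma, adjusted p under 0.05 over the 16081 genes with a mean of 10 or more), where the background over all those genes was 18.2% higher and 18.3% lower. Over the genes with a mean of 100 or more, the level that the members share, it was 20.4% higher and 22.3% lower. The members' share called higher, 30.2%, lay above both backgrounds and the share called lower, 7.30%, below both. Groups without overlap were seen for 43 members in the higher direction and 3 in the lower. The background over the genes with a mean of 10 or more was 4.59% and 5.23%, and none at the level of the members was computed. Of the 43, 16 were mitochondrial genome copies, and the other 290 members gave 27 higher and 3 lower. The median log2 fold change of the members was 0.10 and that of all genes tested 0.01. Without the mitochondrial genome copies, 71 members were called higher and 23 lower of 290 (24.5% and 7.93%), and the median log2 fold change was 0.07. Of the 287 members with a mean of 100 or more in both groups, 78 were called higher and 21 lower (27.2% and 7.32%), with a median of 0.09. These 287 still include mitochondrial genome copies, and the 290 still include members that passed the limit only through the group where they were higher. The sets were not left out together. Whether the share called higher lies above the 20.4% background without both of them was therefore not tested.

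All 25 mitochondrial genome copies had a positive log2 fold change, 24 were called higher by limma, and 16 had groups without overlap. Among all genes with a mean of 100 or more, 20.4% were called higher. The copies resemble stretches of 1 mitochondrial genome and several share a parent, so they are not independent measurements. They include MTCO2P22, a member only through the group where it was higher. Their median log2 fold change was 0.77, with a range from 0.10 to 0.96. MTCO1P12 had 82328, 98829 and 115924 normalized counts (lowest, median, highest library) in HCF-1 siRNA, against 54292, 62257 and 80743 in control siRNA. Every HCF-1 siRNA library stood above every control siRNA library, and limma gave a log2 fold change of 0.62 ± 0.08 (SE; adjusted p = 2.39e-05). MTND4P12 had 43474, 55194 and 68744 in HCF-1 siRNA, against 24757, 30118 and 43050 in control siRNA. Its groups also stood apart, by a narrow gap between HCF-1 siRNA replicate 3 and control siRNA replicate 1, with 0.80 ± 0.11 on the log2 scale (SE; limma adjusted p = 2.43e-05).

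The other copies with a large part behaved alike in rank. MTND2P28, a copy of a complex I subunit gene, had 31562, 40498 and 49634 counts in HCF-1 siRNA, against 20262, 24618 and 35469 in control siRNA, and MTCO2P12 had 35560, 42625 and 51343 in HCF-1 siRNA, against 24011, 27733 and 35346 in control siRNA. The groups overlapped for MTND2P28 and not for MTCO2P12, and both were called higher, by 0.66 and 0.61 on the log2 scale. MTND5P11, a copy of another complex I subunit gene on chromosome 5, had 16046, 19995 and 23668 counts in HCF-1 siRNA, against 8805, 10409 and 14052 in control siRNA, a log2 fold change of 0.89 ± 0.09 (SE; limma adjusted p = 1.81e-06). MTND1P23 on chromosome 1 had 12480, 15116 and 19527 counts in HCF-1 siRNA, against 7123, 8544 and 11858 in control siRNA, a log2 fold change of 0.77. The groups of MTND5P11 and MTND1P23 did not overlap.

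MTATP6P1, a copy of an ATP synthase subunit gene, and MTCO3P12 (listed as RP5-857K21.11), a copy of a cytochrome c oxidase subunit gene, overlap each other on the same strand in the annotation, so their reads may be split between them. Both were called higher, by 0.58 and 0.46 on the log2 scale, with overlapping groups. MTCO2P2 (listed as RP11-380M21.2) on chromosome 18 had 8766, 9970 and 11579 counts in HCF-1 siRNA, against 5710, 6778 and 8100 in control siRNA, without overlap and with a log2 fold change of 0.57. The 1 copy not called was MTND3P25 (listed as CTB-36O1.3) in the chromosome 5 block, with 642 to 869 counts in HCF-1 siRNA and 499 to 1086 in control siRNA and a log2 fold change of 0.10 (limma adjusted p = 0.517). RP11-777B9.5, the copy like MT-RNR2, had the highest log2 fold change of the 25, 0.96.

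**Figure D3:**
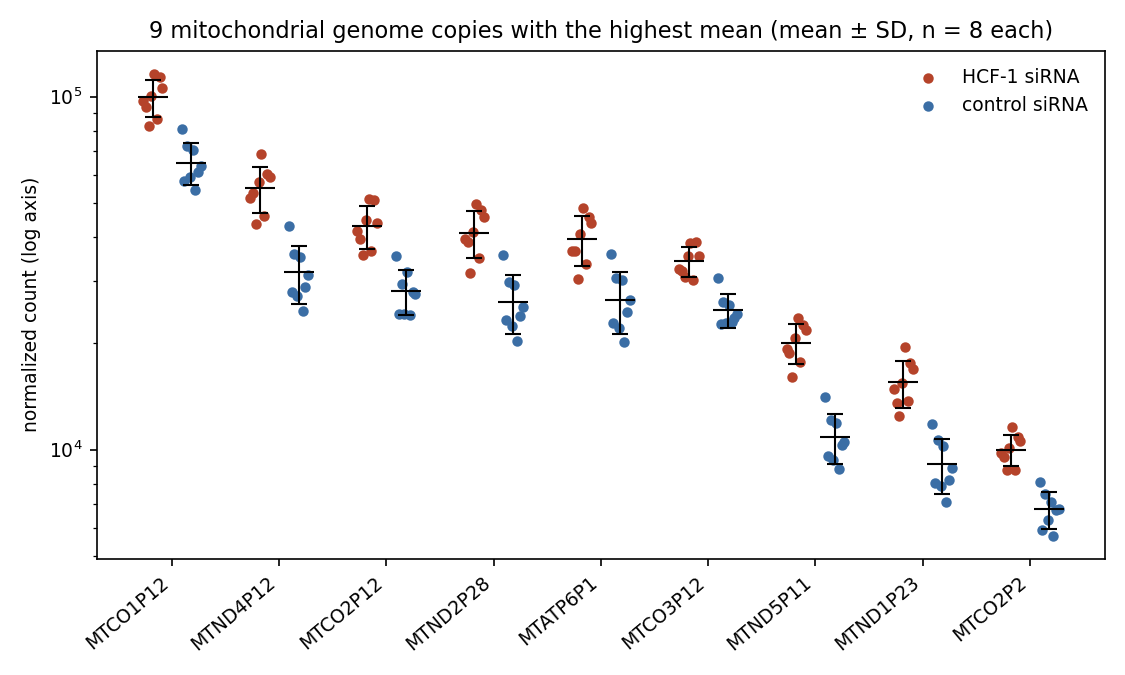
Normalized count (log axis) in every library for the 9 mitochondrial genome copies with the highest mean, named as in GENCODE release 29. Points are libraries and bars mean ± SD (n = 8 each); HCF-1 siRNA libraries lie above control siRNA libraries for each copy, with a narrow gap or a small overlap made by control siRNA replicate 1.

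The size of the change differed between the blocks. Log2 fold changes ran from 0.46 to 0.77 in the chromosome 1 block (median 0.62) and from 0.10 to 0.93 in the chromosome 5 block (median 0.81), and the median of the 12 copies outside both was 0.80. The reads of the chromosome 5 block came to 32.9 ± 0.8% of those of the chromosome 1 block in HCF-1 siRNA and to 28.4 ± 0.8% in control siRNA (SD, n = 8 each), and no library of one group fell in the range of the other. Per length, the mean normalized count per kilobase of transcript lay between 154 (MTCO2P22, listed as RP11-475J5.4) and 53933 (MTCO3P12), with a median of 8529 over the 25 copies, where the median of the other members was 184.

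Rows outside the members that resemble mitochondrial ribosomal RNA moved alike. Of 9 MTRNR2L genes, nuclear genes that resemble MT-RNR2, 7 were called higher by limma and all had positive values, with a median log2 fold change of 0.77. MTRNR2L12 had 23335 to 33111 normalized counts in HCF-1 siRNA and 13400 to 19056 in control siRNA. Reads in rows of biotype rRNA went the other way, at 0.975 ± 0.122% of reads in HCF-1 siRNA and 1.40 ± 0.11% in control siRNA (SD, n = 8 each), mostly in RNA28S5. With rRNA reads left out of the total, the difference in pseudogene read share was 0.517 percentage points. The part of library make-up in the rise of the mitochondrial genome copies was not tested further.

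Outside the mitochondrial genome copies, calls were listed separately for unprocessed and processed members, and the difference between the classes was not tested. Among all genes with a mean of 100 or more, 20.4% were called higher and 22.3% lower. The class counts include members with a mean of 100 or more in 1 group only. Over all 315 members there were 28 of these, 17 called higher and 2 lower, and they were not split by class. Of 117 unprocessed or unitary members 42 were called higher and 6 lower (35.9% and 5.13%), with a median log2 fold change of 0.18. Their share of reads was 0.166 ± 0.008% in HCF-1 siRNA and 0.134 ± 0.005% in control siRNA (SD, n = 8 each), without overlap. Of 138 processed members 21 were called higher and 12 lower (15.2% and 8.70%), with a median of -0.03. Their share was 0.710 ± 0.021% in HCF-1 siRNA and 0.710 ± 0.017% in control siRNA (SD, n = 8 each). The unprocessed and unitary members thus held 6.01% of the rise in pseudogene read share and the processed members 0.087%. The classes differ also in identity to their parents, with medians of 97.4% and 98.5%.

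**Figure D4:**
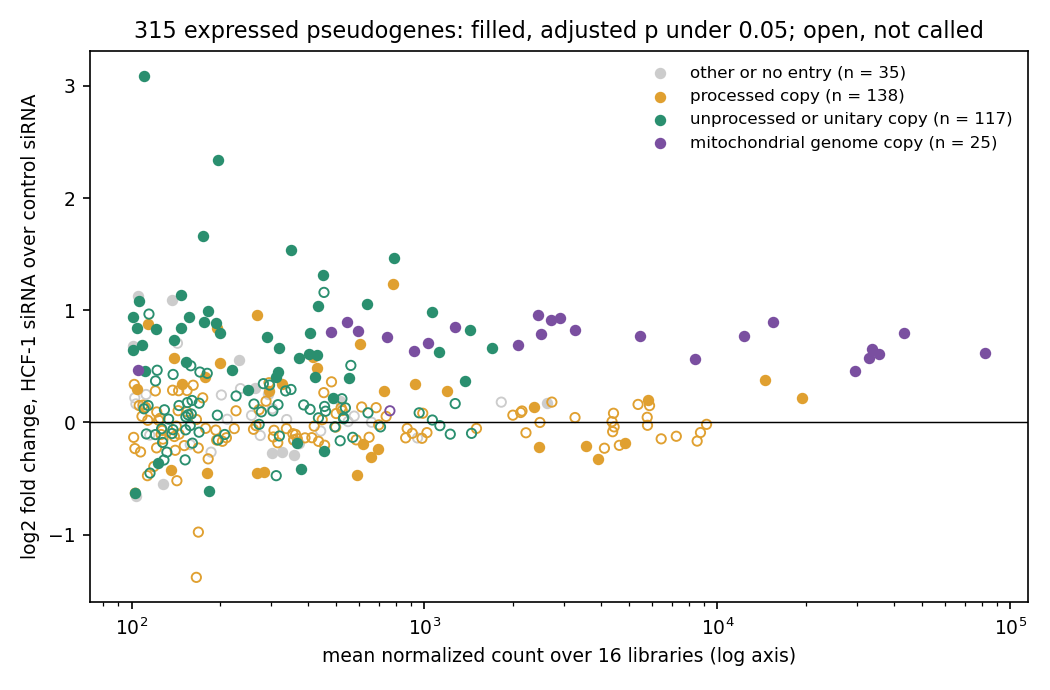
Log2 fold change, HCF-1 siRNA over control siRNA (vertical axis), against the mean normalized count over 16 libraries (log axis) for the 315 members, coloured by class. Filled points were called at an adjusted p under 0.05 (limma) and open points were not; 24 of 25 mitochondrial genome copies are filled and above 0, and all 10 members with the highest means are filled and above 0.

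The 5 called members with the largest rise and groups without overlap were MST1L, HERC2P2, MST1P2, PI4KAP1 and DDX12P, each unprocessed. MST1L and DDX12P averaged under 100 in control siRNA (87.0 and 93.7), so they are members only through the group where they were higher, and their rise is a description. MST1L and MST1P2 are copies of MST1, the gene for macrophage-stimulating protein, which the liver secretes. MST1P2 had 936, 1167 and 1313 normalized counts (lowest, median, highest) in HCF-1 siRNA, against 355, 415 and 537 in control siRNA, a log2 fold change of 1.47 ± 0.08 (SE; limma adjusted p = 2.27e-09). MST1L had 219, 254 and 316 in HCF-1 siRNA, against 55.1, 83.5 and 128 in control siRNA, a log2 fold change of 1.66 ± 0.19 (SE; limma adjusted p = 4.74e-06). The parent MST1 was called higher by 0.50, to 1631 ± 237 in HCF-1 siRNA, against 1151 ± 131 in control siRNA (SD, n = 8 each).

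HERC2P2 is a copy of HERC2, which encodes a large ubiquitin ligase. It had 432, 503 and 616 counts in HCF-1 siRNA, against 141, 177 and 232 in control siRNA, a log2 fold change of 1.54 ± 0.10 (SE; limma adjusted p = 1.15e-08), while HERC2 had a log2 fold change of 0.11 (adjusted p = 0.484). PI4KAP1 is a copy of PI4KA, the gene for a phosphatidylinositol kinase of the plasma membrane. It had 462, 651 and 791 counts in HCF-1 siRNA, against 223, 246 and 347 in control siRNA, a log2 fold change of 1.32 ± 0.12 (SE; limma adjusted p = 5.08e-07), whereas PI4KA was called lower, by -0.26. DDX12P, a copy of the DNA helicase gene DDX11, had 141, 206 and 268 counts in HCF-1 siRNA, against 53.3, 84.3 and 139 in control siRNA, a log2 fold change of 1.13. DDX11 was not called (0.20; adjusted p = 0.278).

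Members that share a parent could be compared within families. All 6 copies of PKD1, the gene for the membrane protein polycystin-1, were called higher, with a median log2 fold change of 0.81. The groups did not overlap for 3 of the 6. The copy PKD1P1 is a member only through the group where it was higher, so its rise is a description, and it was spread over 5-fold within a group. RP11-1212A22.1 ran from 1446 to 2126 counts in HCF-1 siRNA, against 790 to 1316 in control siRNA, and PKD1 itself was called higher by 0.39. Of 5 copies of SMG1, which encodes a kinase of nonsense-mediated decay, 4 were called higher, led by SMG1P1 with 1.05, and SMG1 was called higher by 0.56. All 3 copies of SNX18, a gene for a sorting nexin, were called higher, by 0.45 to 0.57, while SNX18 was called lower by -0.35. Their parent is the one that the symbols name. Their median identity to SNX18 was 75.6%, under the 80% asked of a parent by sequence. The copies in each of these families are alike in sequence and several overlap other genes in the annotation, so they are not independent measurements. In the other families of 3 or more copies fewer were called higher: 1 of 5 for WASHC1, 1 of 3 for GOLGA2 and 1 of 3 for LRRC37A. The count was 0 of 8 for EEF1A1 and 0 of 3 each for PMS2, GTF2I, ANAPC1 and RPS27. Among all genes with a mean of 100 or more, 20.4% were called higher.

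The groups by parent are described by their counts, beside the 20.4% called higher and 22.3% called lower among all genes with a mean of 100 or more. Of 34 ribosomal protein copies 5 were called higher and 4 lower, with a median log2 fold change of -0.03, and of 13 translation factor copies 1 was called higher and 1 lower, with a median of -0.10. The 8 copies of EEF1A1, the gene for a translation elongation factor, all had negative values, and 1 of them was called lower. Of 5 chaperone copies 1 was called higher, of 4 copies of glycolysis and metabolic enzyme genes 1 was called higher and 1 lower, of 3 cytoskeletal copies 1 was called lower, and of 6 copies of chromatin or RNA-binding protein genes 0 were called by limma, edgeR or DESeq2, also at an unadjusted limma p under 0.05 (0 of 6). In the families of segmental duplications 15 of 39 members were called higher and 2 lower, with a median of 0.33. These families include MST1L, a member only through the group where it was higher. None of the group counts was split by whether a member passed the limit in both groups. Of the 42 members with neither a parent nor a family 10 were called higher and 6 lower.

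Some ribosomal protein copies had a part large enough to stand among the leading members. RPL21P16 (listed as RP11-572P18.1) on chromosome 10 had 14069, 16529 and 19037 counts in HCF-1 siRNA, against 11395, 12719 and 13703 in control siRNA, a log2 fold change of 0.38 ± 0.06 (SE; limma adjusted p = 8.39e-05) with no overlap. Its transcript is identical to part of that of RPL21 without a difference, and its count was 1858% of that of RPL21, which was called higher by 0.26. RPL9P9 (listed as UBE2Q2P6), with 19108, 21252 and 22668 counts in HCF-1 siRNA, against 17090, 17793 and 19260 in control siRNA, was called higher by 0.22, and RPL9 by 0.25. The ratios of both copies to their parents were not called. For such copies a count can hold reads of the parent, and which locus the RNA came from cannot be told from the counts.

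The 5 largest negative parts belonged to RPS28P7 (listed as RP11-742N3.1), RPS2P5, EEF1A1P5 and the copies of RPLP0 and RPS10 listed as CTB-63M22.1 and RP11-425L10.1. RPS2P5 was the only one of them called lower, with 2420, 3602 and 3983 counts in HCF-1 siRNA, against 3651, 4343 and 4903 in control siRNA and a log2 fold change of -0.33 (limma adjusted p = 0.00852). The parent RPS2, which encodes a small-subunit ribosomal protein, was called lower by -0.31. RPS28P7 had 6682, 7826 and 9821 counts in HCF-1 siRNA, against 7533, 8905 and 10674 in control siRNA (log2 fold change -0.17, limma adjusted p = 0.101). Its parent RPS28 averaged only 465 in HCF-1 siRNA and 414 in control siRNA and was not called (0.18, limma adjusted p = 0.563). The log2 fold changes of the other 3 were -0.15, -0.12 and -0.23, with adjusted p of 0.582, 0.0657 and 0.0549 by limma.

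The 3 members called lower with groups that did not overlap were AQP7P3, OR7E38P and AC004057.1. AQP7P3 averaged 80.6 in HCF-1 siRNA and 125 in control siRNA, so it is a member only through the group where it was higher, and its fall is a description. AQP7P3, a copy on chromosome 9 of the glycerol channel gene AQP7, had 70.8, 77.1 and 98.2 counts in HCF-1 siRNA, against 103, 124 and 157 in control siRNA, a log2 fold change of -0.63 ± 0.11 (SE; limma adjusted p = 0.000216). AQP7 was low, at 29.1 in HCF-1 siRNA and 25.1 in control siRNA on average, and was not called. OR7E38P, of an olfactory receptor family, had 131, 145 and 166 counts in HCF-1 siRNA, against 192, 222 and 261 in control siRNA (log2 fold change -0.61, limma adjusted p = 1.62e-05). AC004057.1, identical to part of the RPS26 transcript, had 3127, 3311 and 3473 counts in HCF-1 siRNA, against 3703, 3804 and 3962 in control siRNA (log2 fold change -0.21, limma adjusted p = 6.22e-05). RPS26 itself averaged only 130 in HCF-1 siRNA and 162 in control siRNA and was not called (-0.30, limma adjusted p = 0.306). The count of AC004057.1 can therefore hold reads of RPS26, and which locus fell cannot be told.

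AQP7P3, which had the lowest log2 fold change of the 3, is shown beside AQP7, which also lies on chromosome 9. The window runs from base 252 to 351 of the AQP7P3 transcript and from 412 to 511 of AQP7. It was chosen in the same way, but only among windows that lie within the coding sequence of AQP7.
AQP7P3: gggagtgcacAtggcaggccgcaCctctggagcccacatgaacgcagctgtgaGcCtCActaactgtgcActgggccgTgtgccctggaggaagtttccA
AQP7: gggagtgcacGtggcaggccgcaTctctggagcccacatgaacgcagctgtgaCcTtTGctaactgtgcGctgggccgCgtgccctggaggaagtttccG

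The window holds 9 differences and the whole alignment 40, besides 12 gap positions in 1041. Of the 50-base words of AQP7P3, 87.3% do not occur in AQP7.

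Parents of the expressed pseudogenes were called about as often in either direction. Of 176 distinct parents tested, 39 were called higher and 36 lower, which is 22.2% and 20.5% against the background of 18.2% and 18.3% over all genes and 20.4% and 22.3% over genes with a mean of 100 or more, and their median log2 fold change was 0.02. Under total-count scaling the counts were 31 higher and 44 lower, so the balance depends on the scaling. Among the 224 members with a tested parent, 28 were called higher with a parent called higher. Another 4 were called higher with a parent called lower and 20 with a parent not called. Members that share a parent are counted separately here and are not independent: the 28 include 6 copies of PKD1 and 4 of SMG1. Of the members called lower, 8 had a parent called lower and none a parent called higher. The median member had 13.8% of its parent's count, uncorrected for length, and 33 of 228 had more than their parent.

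To ask whether a pseudogene moved apart from its parent, the log2 ratio of the pair was tested over all 447 pairs that the symbols name. Of the 145 members in such a pair, 18 had a higher ratio and 1 a lower ratio in HCF-1 siRNA. The background over all pairs was 8.05% higher and 1.34% lower, and the members' median was 0.00. That background includes the members themselves, which hold 18 of its 36 pairs called higher. It also takes in pairs with means down to 10, and none at the level of the members was computed. Of the 136 with a mean of 100 or more in both groups, 15 had a ratio called higher by limma; FAR2P1, BMS1P5, WHAMMP3 and AQP7P3 are the 4 called pairs that this leaves out. The largest called ratio changes were those of FAR2P1 (2.03 ± 0.44, SE, limma adjusted p = 0.00665), PI4KAP1 (1.58 ± 0.12, SE, limma adjusted p = 3.30e-07) and HERC2P2 (1.42 ± 0.19, SE, limma adjusted p = 4.77e-05). FAR2P1, a copy of a fatty acyl-CoA reductase gene, was spread widely, from 137 to 831 counts in HCF-1 siRNA and from 23.4 to 206 in control siRNA. BMS1P5, a copy of a ribosome biogenesis gene, followed with 1.19, MST1P2 with 0.97 and CLUHP3, a copy of the gene for an RNA-binding protein of messengers for mitochondrial proteins, with 0.91. The ratios of SNX18P26, SNX18P16 and SNX18P3 to SNX18 rose by 0.93, 0.91 and 0.81 and share their parent.

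In PLEKHM1P, NSUN5P1 and AMZ2P1 the ratio was called higher while the pseudogene itself was not called and the parent was called lower, by -0.53, -0.35 and -0.45. RPL32P3, SDHAP1, HERC2P9, WHAMMP3, GOLGA2P5 and SMG1P1 completed the pairs with a higher ratio, between 0.49 and 0.88. AQP7P3 was the pair with a lower ratio, -0.83 ± 0.23 (SE; limma adjusted p = 0.0314). For 126 members the ratio was not called, which does not show that copy and parent moved equally.

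**Figure D5:**
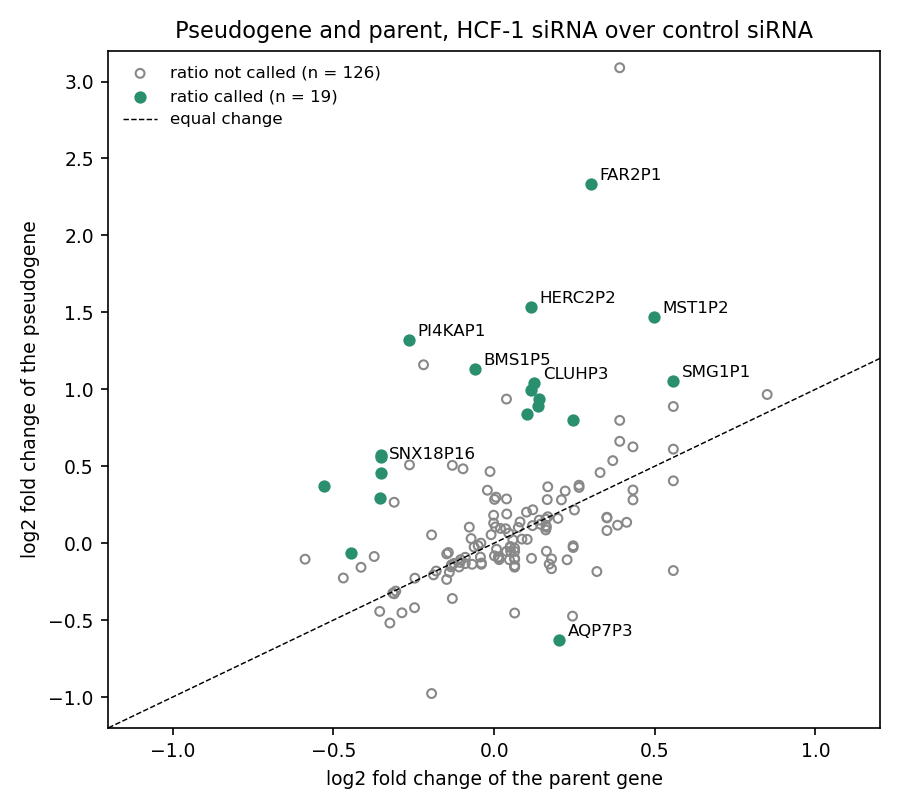
Log2 fold change of the pseudogene (vertical axis) against that of its parent gene (horizontal axis), HCF-1 siRNA over control siRNA, for the 145 members in a tested pair. Filled points have a ratio called by limma at an adjusted p under 0.05 (19) and open points do not (126); 18 filled points lie above the dashed line of equal change and AQP7P3 lies below it.

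Some members varied far more between libraries of 1 group than between groups. For 23 members the highest library of a group was over 5 times the lowest, and 3 of these, WASH5P, FAR2P1 and PKD1P1, were called, all higher. Among the 23, 5 members were listed at 0 in at least 1 library of a group whose median was above 50. PROSP, a copy of the gene for the anticoagulant protein S, had under 2 counts in 3 HCF-1 siRNA and 3 control siRNA libraries, with 89.1 to 459 in the other HCF-1 siRNA libraries and 119 to 337 in the other control siRNA libraries. AC011933.1, a ribosomal protein copy, had under 2 counts in 3 HCF-1 siRNA libraries and 1 control siRNA library, with 174 to 420 in the other HCF-1 siRNA libraries and 50.2 to 350 in the other control siRNA libraries. RP5-1009N12.1, a copy of a sorting nexin gene, was under 2 in 2 HCF-1 siRNA libraries and 1 control siRNA library, and AP000344.4 and PSME2P2, a copy of a proteasome activator gene, each in 2 libraries of either group. None of these 5 was called by limma, with adjusted p of 0.540 to 0.994, nor by edgeR or DESeq2 on recovered reads.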

How the data were processed

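Per the labels' protocols, stranded mRNA libraries were prepared from total RNA of HepG2 cells. The values deposited by the authors are a signal, counts of each Ensembl gene scaled by 1 size factor for each library. The submitters' processing notes name hg19, DESeq2 1.16.1, featureCounts 1.4.4, STAR 2.4.1d and cutadapt 1.4.2. Not given in the sources used here are the strand setting, the annotation release and the treatment of reads that fit several loci. Dividing by the smallest value of each library gave whole reads for 100.0% of values (within 0.01), which were used for shares, totals and count models. No columns of per-library values were left out. Replicates were biological per the labels.

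limma 3.58.1 (R 4.3.3; lmFit, eBayes with trend and robust options) was fitted to log2(value + 1), on the 16081 genes whose mean was at least 10, with Benjamini-Hochberg adjustment over all of them and calls at 0.05; the pseudocount understates changes of low genes. The same model was fitted to pseudogene-minus-parent differences. Read shares were compared by exact permutation. The limma step was tested on simulated data. Kinds, chromosomes and overlaps came from GENCODE release 29 (GRCh38, so no positions are given), where 282 members matched by identifier and 25 by symbol, and 8 did not. Parents by sequence came from blastn 2.17.0, with at least 350 aligned bases or 50% of the transcript and 80% identity. Matches to MTRNR2L genes were counted as MT-RNR2.

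Named members were the 10 largest positive and 5 largest negative parts in the share difference, the 5 largest called rises and up to 5 falls without overlap, the 8 highest means, those next to the limit of 100 and those listed at 0; other names were chosen after their values were seen. Members and lists were chosen with earlier results of these data known. Alternatives were pseudocounts of 0.5 and 10, other filters and scalings, edgeR 4.0.16, DESeq2 1.42.0, the replicate number as a block, other limits for membership and each library left out.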

Additional observations from a re-analysis of the deposited data

Results flagged for a closer look

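Among the named members and read shares, 3 groups of 8 libraries held 1 library far from the other 7. Chance gives about 1 in 20 such groups, and 78 groups were examined. EEF1A1P5 stood at 10420 (normalized count) for HCF-1 siRNA replicate 7, where the other HCF-1 siRNA libraries had 4532 to 7007. MTCO3P12 (listed as RP5-857K21.11) had 30610 in control siRNA replicate 1, where the other control siRNA libraries had 22629 to 26192. PI4KAP1 had 347 in control siRNA replicate 1, where the others had 223 to 273.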

How the results depend on the processing

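With members that overlap another gene in the annotation left out, 61 of 207 members were called higher, against 95 of 315, and 16 lower, against 23 of 315; the drop follows from the smaller number of members. Under the other alternatives the counts of members, parents, pair ratios and all genes called stayed within 1.5 times their reported values. Leaving out each library in turn gave 93 to 99 members called higher, 19 to 26 lower, 34 to 40 parents higher, 31 to 37 lower, 14 to 21 changed ratios and 5488 to 5888 genes called. On recovered reads edgeR called 92 members higher and 24 lower, and DESeq2 104 and 24. The difference in pseudogene read share was 0.484 to 0.558 percentage points over libraries left out, 0.181 without the 5 largest parts, 0.163 without pseudogenes that overlap another gene, and 0.0353 without the mitochondrial genome copies (exact permutation p = 0.00886; an alternative chosen after seeing the data). Same-numbered libraries did not deviate together (correlations -0.074 to 0.098, 1 of 8 closest to its own number); with the replicate number as a block 94 members were called higher, 21 lower and 14 ratios changed, and the paired sign-flip exact p for the share was 0.00781. Total-count scaling shifted the median of all genes to -0.02 on the log2 scale. Of 725 values of the 29 named members under an alternative, 709 kept their side of the threshold and 16, in 3 members, crossed into a call: RP11-742N3.1 (RPS28P7), CTB-63M22.1 and RP11-425L10.1, all lower. Counts do not show from which of 2 near-identical loci a read came, at any depth.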

Other observations

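Some members outside the named set changed in families not yet described, and they were chosen here after their values were seen. LRRC37A4P, of a duplicated gene family, had a log2 fold change of 0.63 (limma adjusted p = 4.74e-07) with groups that did not overlap. It was the only 1 called of 3 copies of LRRC37A. ABCC6P1, a copy of a liver-expressed transporter gene, had 0.37 (limma adjusted p = 0.000154), and its parent ABCC6 was called higher by 0.17. AFG3L1P, a unitary pseudogene of a mitochondrial protease family, had 0.76 (limma adjusted p = 6.92e-05). BANF1P3 and PRELID1P1, both processed copies, were called lower by -0.44 and -0.45. Their parents BANF1 and PRELID1 were called lower as well, by -0.36 and -0.29.

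GLUD1P2, a copy of the glutamate dehydrogenase gene, ran from 10.5 to 3070 normalized counts within HCF-1 siRNA and from 14.3 to 2171 within control siRNA. Pseudogenes under the mean of 100 took 0.112% to 0.119% of reads in control siRNA replicates 6 to 8 and 0.0908% to 0.0941% in control siRNA replicates 1 to 5, a split chosen after its values were seen. The HCF-1 siRNA libraries lay between 0.0980% and 0.106%.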
